A study of Mus musculus with 8 samples.

Results

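The enzymes that set the rate of the phosphofructokinase step of glycolysis were examined in mouse primary cardiac fibroblasts. The members were chosen by gene symbol, with earlier results of these data known. They comprise the 3 subunits of phosphofructokinase-1 (Pfkl, Pfkm and Pfkp), the 4 bifunctional PFKFB enzymes (Pfkfb1, Pfkfb2, Pfkfb3 and Pfkfb4), the phosphatase Tigar and the opposing enzymes Fbp1 and Fbp2. All 10 were found among the 22274 genes of the deposited table. The study asked how IRF7, a transcription factor of the interferon response, alters the gene program of fibroblasts exposed to TGF-β, the growth factor that drives their conversion into myofibroblasts. RNA-seq was available for 8 libraries of heart fibroblasts, 4 labelled GFP and 4 labelled OEIRF7. The labels give TGF-β as the treatment of both groups without a dose, and the study's text gives 5 ng/ml for 24 h. There was no library without TGF-β. The series' design text names adeno-associated virus as the vector for IRF7, whereas the study's text names an adenovirus and calls the control an empty vector. The study's reagent list gives a CMV promoter for its adenoviruses and a periostin promoter for its adeno-associated viruses. The study describes the periostin promoter as specific to myofibroblasts. Which vector and promoter these cultures received is thus not settled by the sources. The labels give no age, strain or sex of the animals, and do not say whether the 4 libraries of a group came from separate cultures, so that the p-values below measure the spread between libraries, which may be technical.

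Phosphofructokinase-1 phosphorylates fructose 6-phosphate and is the first committed reaction of glycolysis. The enzyme is a tetramer of the liver (Pfkl), muscle (Pfkm) and platelet (Pfkp) subunits, and its strongest known activator is fructose 2,6-bisphosphate. The PFKFB enzymes both make and degrade this activator, with Pfkfb3 the isozyme whose kinase activity most outweighs its phosphatase activity. Tigar, a p53-induced phosphatase, lowers the activator, and the fructose-1,6-bisphosphatases Fbp1 and Fbp2 run the step in reverse during gluconeogenesis. Rising glycolysis is a known feature of fibroblasts that turn into myofibroblasts, and Pfkfb3 and Pfkfb4 are known targets of the hypoxia-inducible factors.

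Each library held 24454801 to 28658826 counted reads, and the first principal component, with 72.7% of the variance, separated the groups. The mouse Irf7 gene was measured at 107, 147, 92.0 and 126 CPM (reads of the gene in 1000000 counted reads) in the GFP libraries and at 14.9, 14.5, 14.9 and 16.4 CPM in the OEIRF7 libraries. Every library labelled OEIRF7 was thus below every GFP library (log2 fold change -2.96, SE 0.121, adjusted p = 7.7e-11), a direction that goes against the label. The study's reagent list names a human IRF7 insert for the adenovirus and a mouse Irf7 insert for the adeno-associated virus. The reads were aligned to the mouse genome, and how far a human insert is counted there is not known. Myofibroblast genes, named after their values were seen, were lower in the OEIRF7 libraries. Acta2, which encodes α-smooth muscle actin, had a mean of 2061 CPM in the GFP and 581 CPM in the OEIRF7 group (log2 fold change -1.83, SE 0.048), and Postn (-0.38), Col3a1 (-0.53) and Col1a1 (-0.16) fell less. No cause of the lower Irf7 counts, including an exchange of labels, was tested. The groups are called by their labels, and each direction below is that of the libraries labelled OEIRF7 against those labelled GFP.

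The promoters of the members with a difference over 1.5-fold were set beside their values. RefSeq gave 19 windows of 250 bases before a transcription start for the 10 members on GRCm38.p6. The core of the hypoxia response element was searched as ACGTG or GCGTG, on either strand. It stood in 13 of these windows, some of which overlap, from 8 genes (all members but Tigar and Fbp1), and in 38.6% of 32851 windows of all genes. The form ACGTG alone stood in 7 windows, from Pfkfb2, Pfkfb3, Fbp2 and Pfkm, and in 16.6% of all windows. Its letters overlap those of the E-box CACGTG, which is not counted again. A core motif of the IRF family (AANNGAAA, on either strand) stood in 2 member windows, from Pfkm and Pfkfb1, and in 21.3% of all windows. The following stretches, 5′ to 3′ on the minus strand, are the longest part of each window that lies outside the gene's annotated exons, with the hypoxia core in capitals.
Pfkl, chr10:78009808-78010004: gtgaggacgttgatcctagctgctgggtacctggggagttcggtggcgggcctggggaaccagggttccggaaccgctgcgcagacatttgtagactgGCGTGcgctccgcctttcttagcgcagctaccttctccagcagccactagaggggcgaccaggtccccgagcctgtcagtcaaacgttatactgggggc
Pfkp, chr13:6648778-6649021: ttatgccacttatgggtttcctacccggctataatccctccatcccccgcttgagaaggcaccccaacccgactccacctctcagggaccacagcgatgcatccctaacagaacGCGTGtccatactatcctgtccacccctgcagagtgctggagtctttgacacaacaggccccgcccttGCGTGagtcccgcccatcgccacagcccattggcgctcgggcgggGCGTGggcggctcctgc
Pfkfb3, chr2:11502102-11502340: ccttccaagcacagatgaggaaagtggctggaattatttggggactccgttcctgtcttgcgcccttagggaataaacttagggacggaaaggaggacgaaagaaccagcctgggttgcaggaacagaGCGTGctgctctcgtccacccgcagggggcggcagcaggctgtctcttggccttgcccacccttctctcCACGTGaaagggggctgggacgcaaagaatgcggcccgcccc
The Pfkl stretch holds 1 core, the Pfkp stretch 3 and the Pfkfb3 stretch 2, and the ACGTG form is that of Pfkfb3, in the capitals that start 53 bases before the transcription start. Another Pfkfb3 start, further upstream, has a core 60 bases before it, within an exon of another transcript. The Pfkl and Pfkfb3 stretches lie inside the annotated spans of their genes, downstream of the outermost annotated start. In the Pfkl window 53 bases are exonic. A match describes letters only, and no binding was measured here.

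Of the 10 members, 9 passed the filter on low counts, and 5 of these rose under OEIRF7 (Pfkl, Pfkp, Pfkfb3, Pfkfb4 and Tigar), at an adjusted p under 0.05 in edgeR's quasi-likelihood test over 13533 genes. Among all genes tested, 29.0% were called higher and 29.9% lower by the same rule, so that calls were common in this comparison. None of the 9 tested members was called lower, and Pfkm, Pfkfb1, Pfkfb2 and Fbp1 did not pass the test. A rise of more than 1.5-fold was seen for 3 members, Pfkl, Pfkp and Pfkfb3, against 9.26% of all genes. The median log2 fold change of the 9 members was 0.32, and that of all tested genes was 0.00. In all 5 called members every OEIRF7 library lay above every GFP library. This separation was shown by 26.8% of all tested genes, close to the 29.0% called higher, so it adds little to the call.

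**Figure D1:**
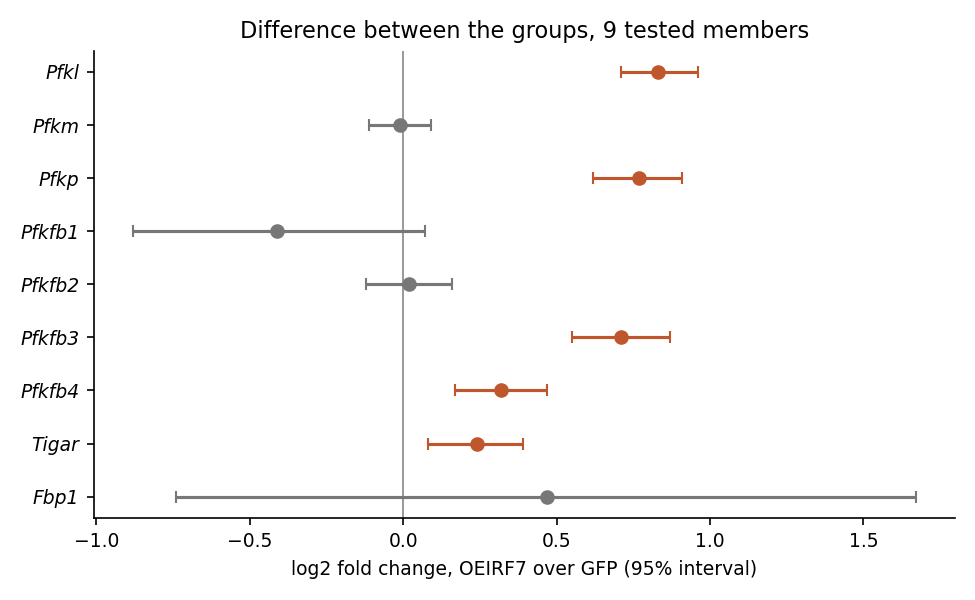
Log2 fold change of OEIRF7 over GFP (horizontal axis) for the 9 tested members, 4 libraries per group, with points for the edgeR estimate and bars for its 95% interval, orange where the adjusted p was under 0.05. Pfkl (0.83), Pfkp (0.77) and Pfkfb3 (0.71) stand furthest to the right, Pfkm (-0.01) and Pfkfb2 (0.02) sit at 0, and the intervals of Pfkfb1 and Fbp1 are wide.

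Pfkl, the liver subunit (GRCm38 chr10:77986947-78010083, minus strand), showed the largest change of the called members. It stood at 111, 105, 131 and 115 CPM in the GFP libraries and at 203, 192, 215 and 213 CPM in the OEIRF7 libraries. The groups did not overlap, and the spread within either group was far smaller than the gap between them (115 ± 10.9 against 206 ± 10.2 CPM, mean ± SD, n = 4 each). Pfkl therefore rose 1.78-fold (95% interval 1.63 to 1.94, adjusted p = 1.5e-08). Permuting the 8 libraries in every possible way (exact, two-sided, on log2 CPM) gave p = 0.029, the smallest that 4 against 4 libraries allow. It gave the same value for each of the 5 called members, which follows from the lack of overlap between their groups. The size of the Pfkl change exceeded that of 88.2% of the tested genes.

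Pfkp, the platelet subunit (chr13:6579768-6648777, minus strand), stood at 69.3, 66.1, 74.9 and 66.9 CPM in the GFP libraries and at 109, 110, 137 and 115 CPM in the OEIRF7 libraries. All OEIRF7 libraries were higher, and replicate 3 was the highest of each group. The rise was 1.70-fold (95% interval 1.54 to 1.88, log2 fold change 0.77, SE 0.067, adjusted p = 1.7e-07), and the log2 value was 0.68 without OEIRF7 replicate 3. Exons of Pfkp share 748 bases, 5.58% of its exonic length, with Pitrm1 on the opposite strand, and the strand setting of the counting was not given. Pitrm1 itself, a mitochondrial peptidase gene, showed a log2 fold change of -0.01 (adjusted p = 0.76).

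Pfkm, the muscle subunit (chr15:98092589-98132451, plus strand), stood at 36.9, 37.9, 36.6 and 37.3 CPM in the GFP libraries and at 36.8, 34.9, 38.5 and 37.6 CPM in the OEIRF7 libraries. The groups overlapped fully, and the coefficient of variation was 1.52% in the GFP and 4.16% in the OEIRF7 group. The difference was -0.01 on the log2 scale (95% interval -0.11 to 0.09, adjusted p = 0.86), and its sign changed with the scaling, being 0.017 with library size alone. The interval excludes a change of the size seen for the other subunits. A non-coding gene annotated on the same strand shares 10.21% of the exonic bases of Pfkm, and was not in the table.

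**Figure D2:**
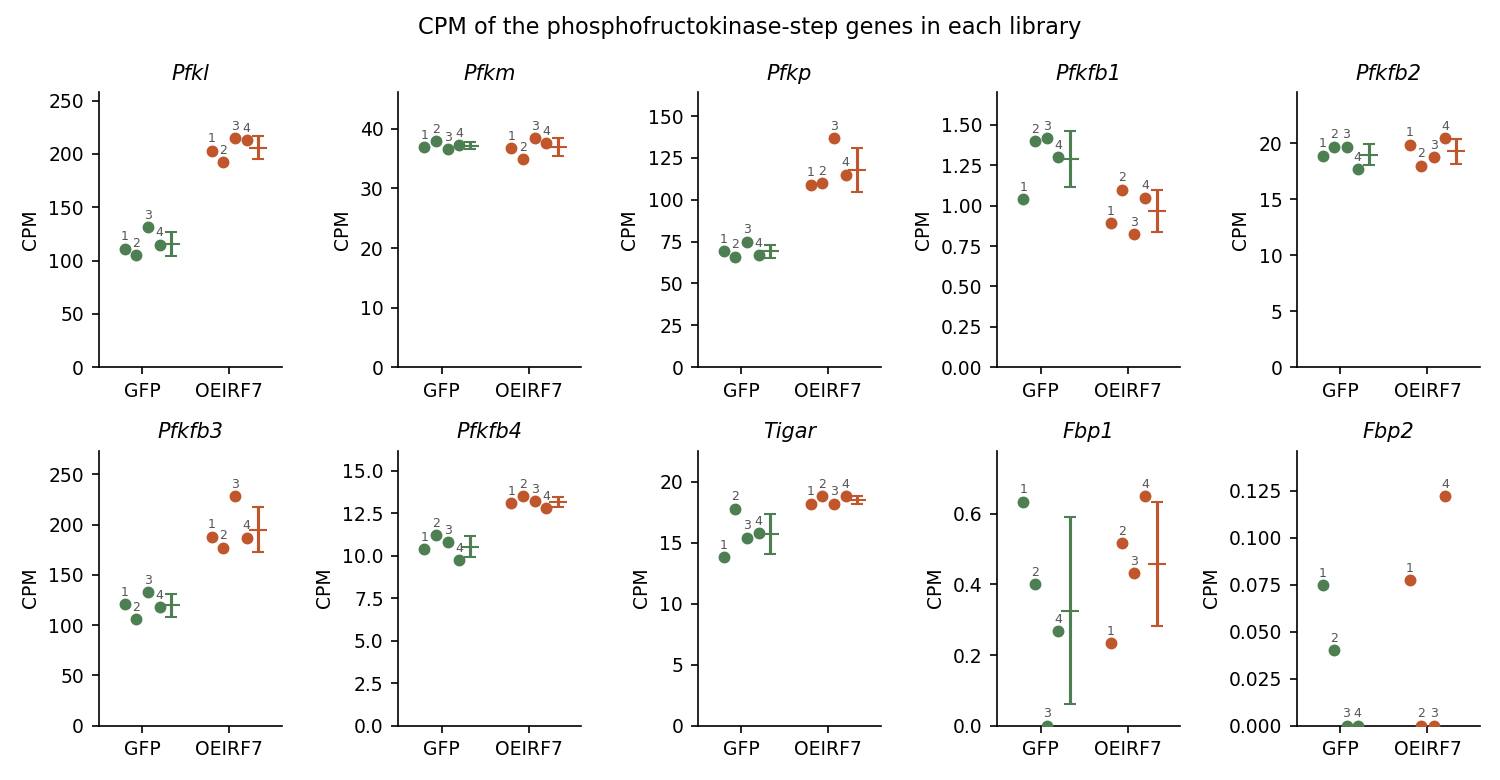
CPM (vertical axis, from 0, scaled per gene) of the 10 members in the 4 GFP (green) and 4 OEIRF7 (orange) libraries, with a point per library, its replicate number above it, and a bar for mean ± SD except for Fbp2, which was at or under 3 counts in every library. The groups are apart in Pfkl, Pfkp, Pfkfb3, Pfkfb4 and Tigar, while they overlap in Pfkm, Pfkfb1, Pfkfb2, Fbp1 and Fbp2.

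Among the enzymes that make the activator, Pfkfb3 (chr2:11471433-11554077, minus strand) showed the largest rise. It stood at 121, 106, 133 and 118 CPM in the GFP libraries and at 188, 177, 228 and 187 CPM in the OEIRF7 libraries. The lowest OEIRF7 library was above the highest GFP library, and replicate 3 again headed both groups. The rise was 1.63-fold (95% interval 1.46 to 1.82, log2 fold change 0.71, SE 0.075, adjusted p = 1.3e-06), with a log2 value of 0.62 without OEIRF7 replicate 3.

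Pfkfb4, an isozyme best known from testis and from hypoxic cells (chr9:108991778-109032228, plus strand), stood at 10.4, 11.2, 10.8 and 9.76 CPM in the GFP libraries and at 13.1, 13.5, 13.2 and 12.8 CPM in the OEIRF7 libraries. Its rise was smaller than that of Pfkfb3, at 1.25-fold (95% interval 1.12 to 1.38, adjusted p = 0.0011), though the groups were apart and the OEIRF7 libraries lay close together. The log2 difference exceeded in size that of 58.4% of the tested genes.

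Pfkfb2, the isozyme typical of heart muscle (chr1:130689182-130729253, minus strand), was measured at 18.9, 19.7, 19.7 and 17.7 CPM in the GFP libraries. In the OEIRF7 libraries it was at 19.9, 18.0, 18.8 and 20.5 CPM. The groups overlapped, and the log2 difference was 0.02 (95% interval -0.12 to 0.16, adjusted p = 0.81), with a sign that depended on the library left out. A predicted gene on the same strand, Gm29427, shares 1262 bases or 17.4% of the exonic length of Pfkfb2 and had 0 counts in every library, and how reads in both genes were treated is not given in the sources used here.

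Pfkfb1, the liver isozyme (chrX:150588229-150643878, plus strand), was near the lower end of the tested range, with 28, 35, 35 and 34 counts in the GFP libraries and 23, 32, 21 and 26 in the OEIRF7 libraries. Its log2 difference was -0.41 with a 95% interval from -0.88 to 0.07 (adjusted p = 0.13), which includes both a level of 0.543 times that of the GFP group and no change. Apex2, a repair nuclease gene on the opposite strand, shares 3.06% of its exonic bases and had a log2 fold change of 0.30 (adjusted p = 0.015).

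Tigar (chr6:127085116-127109557, minus strand), which acts against the PFKFB kinases, stood at 13.8, 17.8, 15.4 and 15.8 CPM in the GFP libraries and at 18.2, 18.8, 18.2 and 18.8 CPM in the OEIRF7 libraries. The highest GFP library came close to the lowest OEIRF7 library, and the GFP group varied more (coefficient of variation 10.4% against 1.93%). The rise was 1.18-fold (95% interval 1.06 to 1.31, log2 fold change 0.24, SE 0.073, adjusted p = 0.012), the smallest of the called members. The adjusted p stayed under 0.05 whichever library was left out, and was highest, at 0.046, without GFP replicate 1.

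The gluconeogenic enzymes were close to the detection limit. Fbp1 (chr13:62864753-62888282, minus strand) had 17, 10, 0 and 7 counts in the GFP libraries and 6, 15, 11 and 16 in the OEIRF7 libraries. The groups overlapped, and the log2 difference of 0.47 had a 95% interval from -0.74 to 1.67 (adjusted p = 0.5), and the log2 value was 0.07 without GFP replicate 3, the library without a count, and 1.01 without GFP replicate 1, the library with the most. Fbp2, the muscle form on the same chromosome (chr13:62836877-62858422, minus strand), had 2, 1, 0 and 0 counts against 2, 0, 0 and 3. No library thus exceeded 3 counts, the limit that a count of 0 allows (0.105 to 0.123 CPM at these depths), and a difference in Fbp2 was not detectable at this depth.

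Levels of different genes were compared on the FPKM scale, which divides by the length of the gene as well as by depth. In the GFP group Pfkl led with 38.0 FPKM, followed by Pfkfb3 with 27.3, Pfkp with 21.9, Pfkm with 13.0, Pfkfb2 with 6.96, Tigar with 4.26, Pfkfb4 with 3.05, Pfkfb1 with 0.87, Fbp1 with 0.217 and Fbp2 with 0.02 FPKM. The ranges of neighbours in this order did not overlap except for Fbp1 and Fbp2. The OEIRF7 group kept the order from Pfkl with 73.0 FPKM to Fbp2 with 0.0375 FPKM, but the ranges of Pfkfb3 (42.48 to 54.34 FPKM) and Pfkp (35.78 to 43.67 FPKM) overlapped there.

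The isozyme composition differed between the groups, here given as a description with no test because it is computed over the members. The summed FPKM of the phosphofructokinase-1 subunits was 73.0 ± 3.04 in the GFP and 124 ± 8.81 in the OEIRF7 group (mean ± SD, n = 4 each). The share of Pfkl in this sum was 52.1% ± 1.44 in the GFP and 58.8% ± 2.35 in the OEIRF7 group. Pfkm made up 17.9% ± 0.759 and 10.6% ± 0.287, and the lowest GFP library (16.8%) was above the highest OEIRF7 library (10.8%). The share of Pfkp was 30.0% ± 1.48 and 30.6% ± 2.11, with overlapping groups. The ratio of Pfkl to Pfkm was 2.74 to 3.11 in the GFP libraries and 5.26 to 6.05 in the OEIRF7 libraries.

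Among the PFKFB enzymes the summed FPKM was 38.2 ± 2.43 in the GFP and 57.8 ± 4.83 in the OEIRF7 group. Pfkfb3 made up 71.5% ± 1.54 of it in the GFP group and 80.0% ± 2.51 in the OEIRF7 group, reaching 83.7% in the library with the most Pfkfb3. Pfkfb2 took 18.2% and 12.2%, Pfkfb4 8.0% and 6.62%, and Pfkfb1 2.29% and 1.23%. Pfkfb4 thus had a smaller share of the family in the OEIRF7 libraries although its own level was higher. The ratio of Pfkfb3 to Tigar, which act on the same metabolite in opposite directions, was 5.18 to 7.27 in the GFP libraries and 8.14 to 10.9 in the OEIRF7 libraries. These are ratios of mRNA levels, and neither enzyme activity nor the metabolite was measured.

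**Figure D3:**
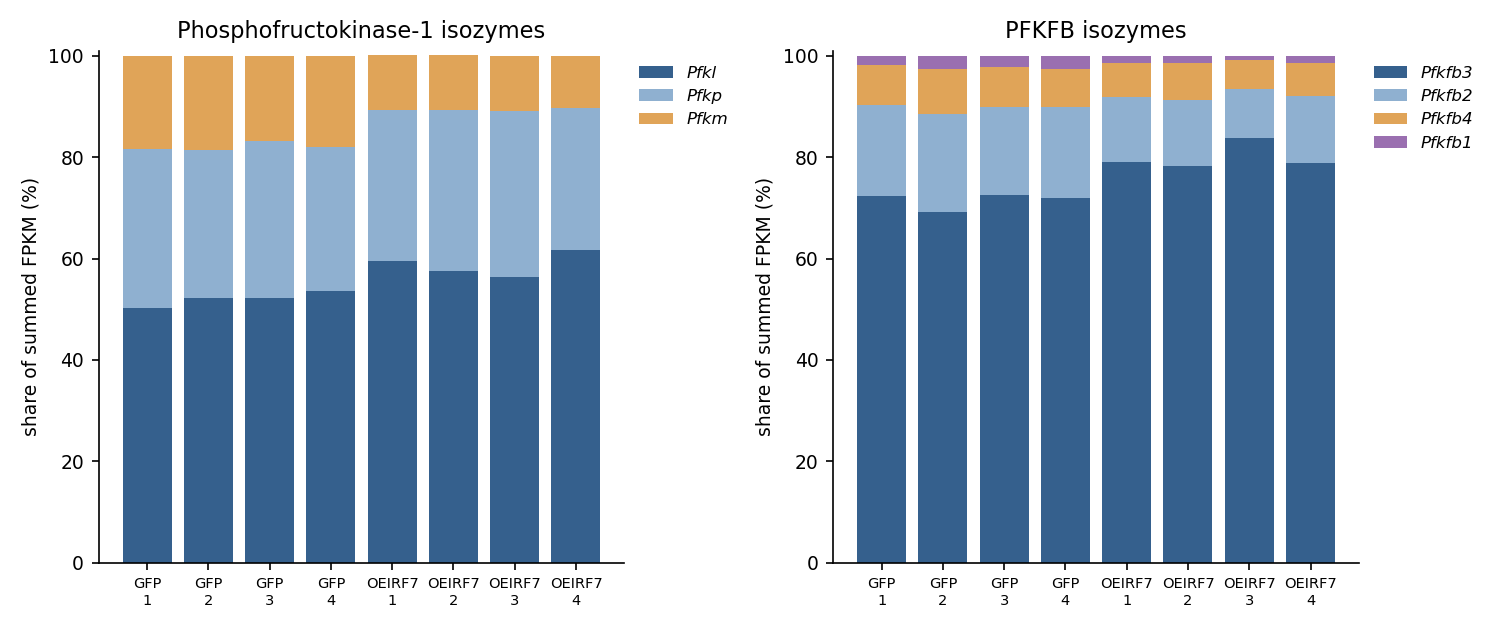
Share of each isozyme in the summed FPKM of its family (vertical axis, percent) in each of the 8 libraries, for the phosphofructokinase-1 subunits on the left and the PFKFB enzymes on the right. The Pfkm segment is smaller in every OEIRF7 library (at most 10.8%) than in any GFP library (at least 16.8%), and the Pfkfb3 segment is larger (at least 78.3% against at most 72.5%).

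The reactions before and after the step were read from a list of 24 other genes of glycolysis, glucose uptake and lactate export, of which 23 could be tested. Of these, 14 rose, 2 fell and 7 did not pass the test, with a median log2 fold change of 0.48. The same rule called 29.0% of all tested genes higher and 29.9% lower. The list was chosen with earlier results of these data known, so its counts are not an independent finding. Hk1, a hexokinase that feeds the step, stood at 251, 227, 255 and 231 CPM in the GFP and at 401, 384, 479 and 399 CPM in the OEIRF7 libraries. The rise of Hk1 (1.73-fold, SE of the log2 value 0.061, adjusted p = 5.4e-08) was close in size to that of Pfkl and Pfkp, and OEIRF7 replicate 3 was again the highest library. Hk2, the inducible hexokinase, rose 2.0-fold (79.2 ± 8.35 to 158 ± 6.43 CPM, adjusted p = 4.2e-09). The largest rise of the list was that of the lactate exporter Slc16a3, from 59.7 ± 3.92 to 171 ± 21.8 CPM (log2 fold change 1.51, adjusted p = 4.9e-10). The 2 genes that fell were Ldhb, the lactate dehydrogenase subunit of oxidative tissues (log2 fold change -1.32, SE 0.102, adjusted p = 4.7e-08), and the glucose transporter Slc2a3 (-0.93, SE 0.118, adjusted p = 8.7e-06).

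**Figure D4:**
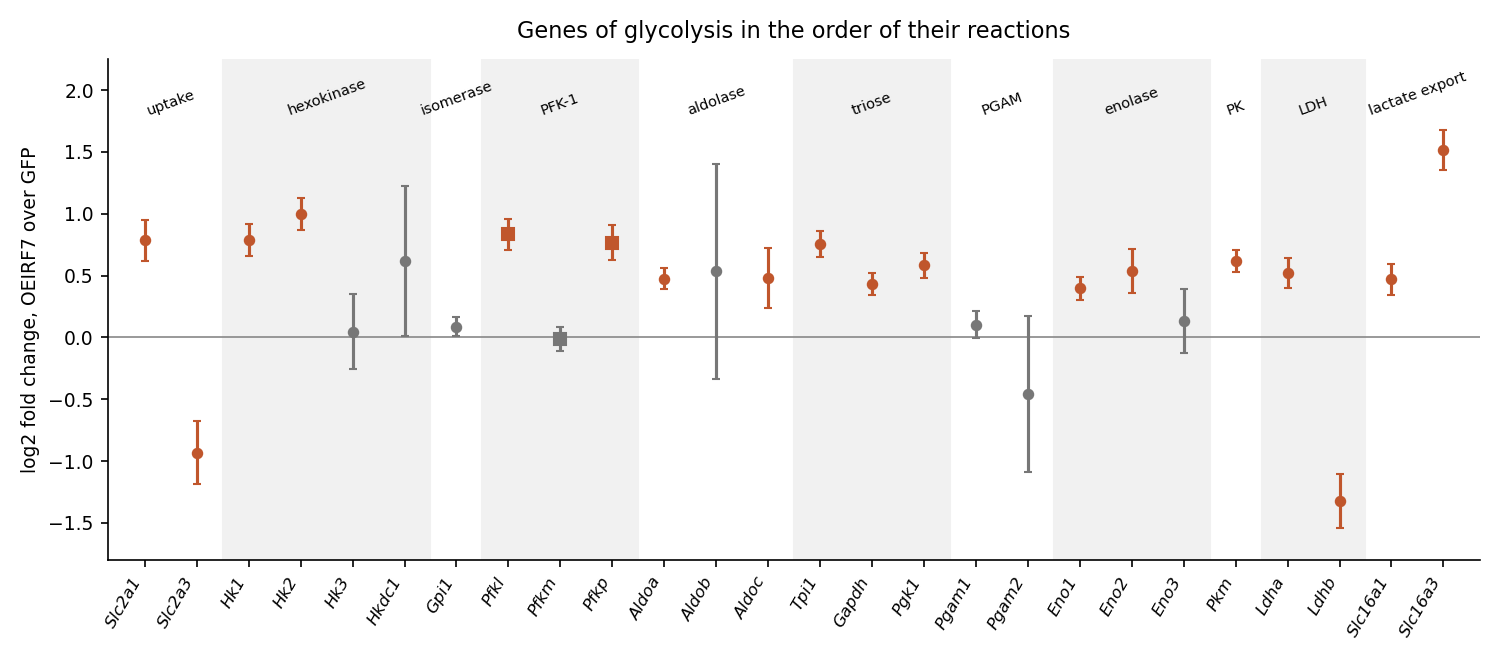
Log2 fold change of OEIRF7 over GFP (vertical axis) for the 26 tested genes of the pathway in the order of their reactions, with edgeR estimates, 95% intervals as bars, squares for the phosphofructokinase-1 subunits and orange where the adjusted p was under 0.05. Pfkl and Pfkp lie near Hk1 (0.79) and below Hk2 (1.0) and Slc16a3 (1.51), and Pfkm lies at 0 with the isomerase gene Gpi1 (0.08).

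Factors and kinases known to act on the PFKFB enzymes, on Tigar or on their genes were also read. Of the 17 tested, 7 rose, 6 fell and 4 did not pass the test (median log2 fold change 0.04). Among all tested genes, 29.0% were called higher and 29.9% lower. Epas1, which encodes the α subunit of hypoxia-inducible factor 2, fell from 213 ± 16.6 to 81.7 ± 8.60 CPM (log2 fold change -1.38, SE 0.07, adjusted p = 5.7e-10). Subunit genes of the AMP-activated protein kinase, which phosphorylates Pfkfb2 and Pfkfb3, differed in direction. Of the catalytic subunits, Prkaa1 rose (0.68, SE 0.037, adjusted p = 1e-09) and Prkaa2 did not pass the test (-0.14, adjusted p = 0.15). Of the scaffold subunits, Prkab2 fell (-1.14, SE 0.047, adjusted p = 7.8e-11) and Prkab1 rose (0.3, adjusted p = 0.00038). The regulatory subunits Prkag1 (-0.11) and Prkag2 (-0.55) fell. Prkaa2, Prkab1, Prkag1 and Prkag2 were named after their values were seen. Myc, a transcription factor that drives glycolytic genes, rose from 24.7 ± 1.36 to 43.6 ± 4.17 CPM (log2 fold change 0.82, adjusted p = 8.9e-08). Hif1a and Trp53, named outside the rule because they control the lists that follow, had log2 fold changes of 0.49 (SE 0.121, adjusted p = 0.0028) and 0.39 (SE 0.042, adjusted p = 1.4e-06).

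Since Pfkfb3 and Pfkfb4 are known hypoxia-induced genes, other genes of this response were read. Of 18 tested, 15 rose, 1 fell and 2 did not pass the test, against 29.0% higher and 29.9% lower over all tested genes. The median log2 fold change of the 18 was 0.39. This list, too, was chosen with earlier results of these data known. The largest rises were those of Ankrd37 (1.63, SE 0.286, adjusted p = 0.00019), the HIF prolyl hydroxylase Egln3 (1.14, SE 0.083, adjusted p = 2.4e-08), the mitophagy receptor Bnip3 (1.08, SE 0.095, adjusted p = 2e-07) and the endoplasmic reticulum oxidase Ero1l (0.93, SE 0.034, adjusted p = 2.4e-11). Adm, the vasodilator peptide adrenomedullin, was the gene that fell (-0.59, adjusted p = 6.3e-09), and was named after its value was seen. The libraries were not labelled with any oxygen condition.

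Tigar is named for its induction by p53, and 16 other targets of p53 were read. Of these, 5 rose (Gdf15, Plk2, Pmaip1, Mdm2 and Cdkn1a), 9 fell and 2 did not pass the test. By the same rule, 29.0% of all tested genes were called higher and 29.9% lower. The median log2 fold change of the 16 targets was -0.23. The largest difference was a fall of Trp53inp1, a p53-induced nuclear protein, from 256 ± 14.9 to 86.6 ± 5.05 CPM (log2 fold change -1.57, adjusted p = 7.6e-12). The death receptor Fas (-1.09, SE 0.099, adjusted p = 2.6e-07) and the receptor Eda2r (-0.71, SE 0.041, adjusted p = 1.9e-09) fell as well, while the stress cytokine Gdf15 rose (1.0, SE 0.065, adjusted p = 7.8e-09). Plk2, Pmaip1, Mdm2 and Cdkn1a were named after their values were seen.

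Pfkl had both the largest change of the called members and the highest level. The genes most like it over the 8 libraries were sought in a set of 10320 genes of at least 5 CPM, which includes Pfkl. By the root mean square distance of log2 CPM centred on each gene's mean, the nearest were Uchl1 (0.039), a deubiquitinase, Whrn (0.046) and Trim8 (0.047). Their log2 fold changes of 0.84, 0.79 and 0.82 were near that of Pfkl. Pfkp was at rank 45 (0.091) and Pfkfb3 at rank 82 (0.101), whereas Tigar was at rank 2404 and Pfkm at rank 5025. The distance is set mostly by the difference between the groups, which the genes share.

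The labelled cell type was checked against marker genes. All 9 fibroblast markers were present, and their summed level was 13000 to 13700 CPM in the GFP libraries and 11500 to 12100 CPM in the OEIRF7 libraries. Most of this sum was Col1a1, Col1a2, Postn and Col3a1, and the single markers differed in direction. Col1a1, Col3a1, Postn, Lum and Tcf21 fell, Tcf21 the most (log2 fold change -1.33). Pdgfra rose (0.25, adjusted p = 0.0025), and Col1a2, Dcn and Thy1 did not pass the test. Of the 8 cardiomyocyte markers 7 had a mean below 1 CPM in both groups, Myh6 being at 0 in the OEIRF7 group and Tnnt2 being the exception, and the 8 summed to 9.84 to 13.7 CPM against 7.73 to 9.85 CPM. Myod1 of the 6 skeletal muscle markers was at 0 in every library. The 5 macrophage markers summed to 250 to 299 CPM against 306 to 339 CPM, without overlap. Most of this sum was Lyz2, with means of 202 and 235 CPM. On the log2 scale Lyz2 (0.22), Adgre1 (0.44) and Cd68 (0.21) rose. Ptprc (adjusted p = 0.64) and Csf1r (adjusted p = 0.54) did not pass the test. The 4 mural markers summed to 25.0 to 29.6 CPM against 65.1 to 81.1 CPM, most of it Cspg4. The 5 endothelial markers summed to 192 to 203 CPM against 189 to 215 CPM, the 4 epicardial markers to 59.7 to 73.2 CPM against 45.0 to 53.3 CPM, and the skeletal muscle markers to 2.54 to 4.0 CPM against 3.06 to 4.86 CPM. Within the endothelial sum, Kdr (log2 fold change 0.79) and Emcn (0.29) rose and Cdh5 (-0.11) fell, whereas Pecam1 and Tie1 did not pass the test. The epicardial sum was carried by Upk3b, with means of 51.8 and 20.8 CPM, whereas Krt19 rose from 4.75 to 18.5 CPM (log2 fold change 1.96, adjusted p = 3.7e-07), Msln rose by 0.19 on the log2 scale (adjusted p = 0.048) and Wt1 did not pass the test (adjusted p = 0.091). The part of these differences in the rises of Pfkl, Pfkp, Pfkfb3, Pfkfb4 and Tigar was not tested, and in such bulk libraries fewer cells of a type and less RNA per cell cannot be told apart.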

How the data were processed

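RNA-seq of mouse primary cardiac fibroblasts gave 8 libraries, 4 per group, grouped by their titles. The authors trimmed reads with Trimmomatic, aligned them with HISAT2 to GRCm38 and deposited raw counts per gene from HTSeq-count together with FPKM values from Cufflinks, rounded to 2 decimals. Tool versions and the strand setting are not given in the sources used here. The labels and the study name different RNA and library kits, and a figure legend gives 3 biological replicates where 4 libraries were deposited. The deposited means, log2 fold changes, p-values and false discovery rates of the authors' own comparison were not used. Of 22274 genes, 3816 had no counts. Symbols were restored from Ensembl IDs (22219 matched), because 121 deposited symbols hold the text GFP where other letters belong.

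Counts were tested in edgeR 4.0.16 (R 4.3.3) with TMM scaling, filterByExpr and the quasi-likelihood test without covariates, adjusted by Benjamini-Hochberg over 13533 genes. CPM are counts scaled to library size after TMM. Single values were also compared by an exact two-sided permutation test in scipy 1.17.1. Depth was 24454801 to 28658826 counted reads per library, and the limits given for a count of 0 cover counting error only. Alternatives were no scaling, upper-quartile scaling, DESeq2 1.42.0, other count filters, limma 3.58.1 on log2(FPKM + 1) or log2(FPKM + 0.1), a replicate block, and each library left out. Named were all members, Irf7, Hk1, Hk2, up to 4 called genes per list with the largest change and a mean of at least 1 CPM, and the 3 genes nearest to Pfkl. The members and lists were chosen with earlier results of these data known. Of the lists, Ero1l and Ero1a are names of the same gene, and Car9 and Pklr were too low to test. Exon positions are from GENCODE M21, and promoter windows from RefSeq.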

Additional observations from a re-analysis of the deposited data

How the results depend on the processing

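The 5 members called higher kept that call under all 16 alternatives, with log2 fold changes of 0.79 to 0.94 for Pfkl, 0.68 to 0.80 for Pfkp, 0.62 to 0.76 for Pfkfb3, 0.25 to 0.35 for Pfkfb4 and 0.18 to 0.30 for Tigar, whose adjusted p reached 0.046. Over all genes 7402 to 8211 were called, against 7969. The sign of Pfkm turned with library size alone (0.017) and in limma on log2(FPKM + 1) (0.014) and log2(FPKM + 0.1) (0.015), and ranged from -0.031 to 0.016 with 1 library left out. Pfkfb2 ranged from -0.015 to 0.053 with 1 library left out, and neither gene passed the test in any setting. The cause was not tested. In counts, which are not per length, the Pfkm share of phosphofructokinase-1 was 16.8% in the GFP and 10.3% in the OEIRF7 group. Deviations of libraries with the same replicate number correlated at 0.079 to 0.138, against -0.158 to 0.048 for other numbers, and all 8 libraries correlated best with their own number, a hint from the data and not from the design. With the replicate number as a block, 8211 genes were called, 5 members, 19 instead of 16 other glycolysis genes and 15 instead of 14 p53 targets, with 13 controllers and 16 hypoxia genes as before. Fbp1 could not be tested with at least 10 counts in every library. Depth limits Fbp1, Fbp2 and Pfkfb1.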
